A study of Bos taurus with 90 samples.

Results

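The genes described here are 150 genes of bovine mural granulosa cells (MGCs) whose transcript level stepped down from small to medium to large antral follicles. Expression was given as CPM, the count of a gene scaled to a library total of 1000000. The 150 were chosen from the 27270 genes of the table by the values of 10 MGC libraries. A gene had to average at least 10 CPM in the small follicles S4, S5 and S6, to be lower in each of the medium follicles M5, M6 and M8 than in any of these small follicles, and to average less in the large follicles L5, L8, L9 and L10 than in the lowest medium follicle. These limits left 185 genes, and the 150 with the largest mean log2(CPM + 1) in small minus large follicles were taken and ranked by that difference. The values of these 10 libraries are therefore a description, and tests were made only in libraries that the choice did not use.

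An antral follicle grows by the expansion of its fluid-filled cavity and the proliferation of its granulosa cells. MGCs line the follicle wall and make estradiol from thecal androgens under follicle-stimulating hormone, whereas cumulus cells (CCs) surround the oocyte and exchange metabolites and signals with it. As follicles enlarge, most stop growing and undergo atresia, and granulosa cells of those that continue move from proliferation towards steroid production and responsiveness to luteinizing hormone.

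The follicles came from ovaries of slaughtered Bos taurus cows, and each follicle gave 1 library of MGCs, 1 of a CC pool and 1 of its oocyte without cumulus. No follicle was treated, and age and breed were not stated in the sources used here. Follicles were called small at 3.1 to 3.8 mm, medium at 6.2 to 7.1 mm and large at 9.6 to 11.6 mm in diameter. The study removed 3 of the 30 follicles for library quality, 1 small and 2 medium. It then confined its stage comparison to the 10 follicles named above, chosen by marker transcripts of MGCs, among them a high level of FSHR, the follicle-stimulating hormone receptor. The other 17 retained follicles, 6 small, 5 medium and 6 large, had been set aside by that selection as subordinate follicles in early atresia, so they differ from the 10 in the level of these markers as well as being separate follicles. The cows are not identified follicle by follicle, and some follicles share an animal, so p-values here treat follicles as independent. The follicle numbers begin with 3 digits whose meaning is not stated, and S4, S5 and S6 share a prefix that no other follicle carries, as M5 and M8 share another. Among the libraries of the choice no prefix holds follicles of different stages, so stage and prefix cannot be told apart there. The large follicles of the choice share prefixes with follicles outside it: L10 with S2, M3 and L2, and L9 with M7 and L1. Likewise L8 shares one with M2 and L3, and L5 with S7. If a prefix marks an animal or a collection, these follicles are not independent of the choice.

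The retained MGC libraries held 26739954 to 39266980 counts, so that 1 CPM stood for 27 to 39 counts. The CC libraries held 8760201 to 40180192 counts without that of S7, and the oocyte libraries 8442938 to 53173320 counts. The CC pool of S7 held 1666212 counts on only 1066 genes, 7 of the 150 among them, and was left out. The MGC samples are bulk RNA, in which fewer cells expressing a gene and less transcript per cell cannot be told apart. Gene symbols for the Ensembl identifiers were not at hand, so the genes are described by rank and level, 4 are given by identifier, and marker genes of the cell types were not examined.

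In the 10 libraries of the choice, the 150 genes together took up 15653 to 16338 CPM in the small follicles, 8378 to 9257 CPM in the medium and 5345 to 7357 CPM in the large. The sums of the 3 stages did not overlap. Under the choice the small and medium sums could not overlap, and the mean large sum had to lie below every medium sum. Mean levels of single genes in small follicles ran from 10.2 to 2122 CPM with a median of 37.8 CPM, and 29 of the 150 averaged 100 CPM or more. The median over the genes was 22.0 CPM in medium and 13.2 CPM in large follicles. The small mean was more than 2-fold the large mean in 117 genes, more than 4-fold in 54 and more than 8-fold in 19, and the median ratio was 2.95. In 6 genes the large mean was under 1 CPM.

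The step from small to medium made up a median of 57.0% of the log2 difference between small and large, with a range from 22.0% to 93.0%, and over 50% in 97 of the 150 genes. Small libraries were the most alike, with a median coefficient of variation of 14.3% over the genes, against 17.2% in medium and 34.9% in large libraries. These libraries chose the genes; in the 17 other retained MGC libraries the medians were 50.1% in small, 36.7% in medium and 46.9% in large. The rule asked only that the large mean be below the medium libraries, and in 64 genes all 4 large libraries were. L5 was not below all the medium libraries in 46 genes, L8 in 41 and L9 in 29, whereas L10, the widest follicle at 11.6 mm, failed this in 1 gene.

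The first gene by rank, ENSBTAG00000026893, held 39.6 CPM in S4, 54.2 in S5 and 14.8 in S6. It held 1.86 CPM in M5, 0.373 in M6 and 2.42 in M8. In the large follicles it held 0.221 CPM in L5, 0.372 in L8, 0.350 in L9 and no count in L10. It was thus nearly silent outside the small follicles in these 10 libraries, and its mean was 153.7-fold higher in small than in large. The most abundant gene, at rank 149, averaged 2122 CPM in small, 1495 CPM in medium and 1356 CPM in large follicles, only a 1.57-fold ratio. The next in abundance, at rank 65, averaged 1778, 773 and 589 CPM. The limit of 150 fell in a dense stretch, since the last genes inside had differences of 0.699, 0.668 and 0.665 on the log2 scale and the first outside 0.664, 0.651 and 0.650.

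The question for the remaining libraries was whether the same genes stepped down in follicles that had no part in the choice. Of the large ones among them, L1, L2 and L3 share a prefix with large follicles of the choice. In the MGCs of the other 17 follicles the 150 genes summed to 13024 to 17115 CPM in small, 9783 to 13852 CPM in medium and 5205 to 11836 CPM in large follicles. In this sum, in which abundant genes weigh most, small and medium overlapped, as did medium and large. Each of the 6 large libraries lay below each of the 6 small ones. The mean sum was 14749 ± 1575 CPM (SD, n = 6) for small follicles, 12436 ± 1653 (SD, n = 5) for medium ones and 9387 ± 2453 (SD, n = 6) for large ones.

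Set against the mean of S4, S5 and S6, the median gene of a library lay between -0.53 and -0.08 on the log2(CPM + 1) scale in the other small libraries, between -0.79 and -0.41 in the medium and between -2.13 and -0.47 in the large. By this measure, unlike the sum, small and large overlapped, since L1 at -0.47 lay above S2 at -0.53 and S9 at -0.50. L6 was the lowest of all retained MGC libraries at -2.13. Among the other large follicles, L6 and L7, both 11.2 mm wide, were the 2 lowest, with L7 at -1.05, and L1, L2, L3 and L4 of 9.6 to 10.2 mm lay between -0.70 and -0.47. The large libraries of the choice ran, in order of diameter, from -1.15 in L5 at 10.2 mm to -1.86 in L10 at 11.6 mm. L4 and L5 had the same diameter and lay at -0.69 and -1.15. Of the removed follicles, the small one lay at -0.32 and the medium ones at -0.82 and -1.36, the last below every retained medium library.

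**Figure D1:**
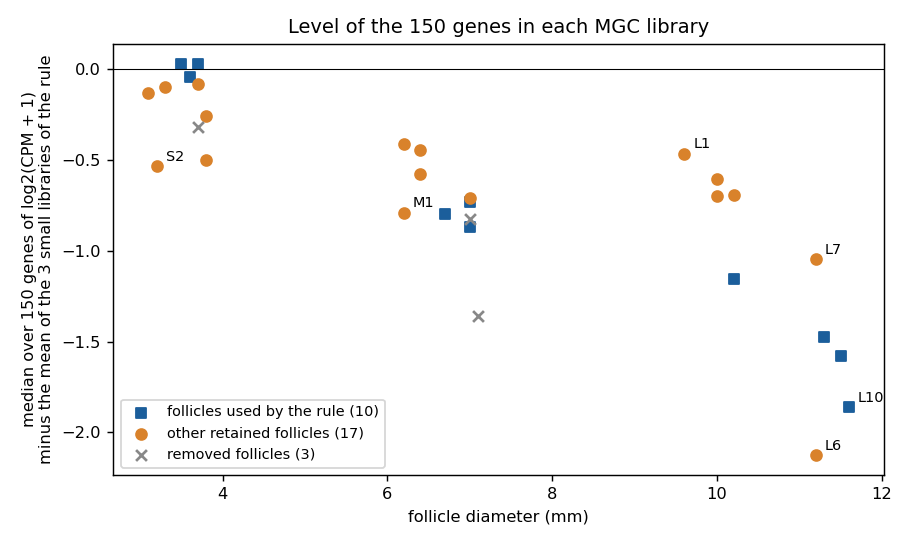
Median over the 150 genes of log2(CPM + 1) in each MGC library, less the mean of S4, S5 and S6 (y axis, log2 units), by follicle diameter (x axis, mm); squares are the 10 libraries that chose the genes, circles the 17 other retained libraries and crosses the 3 removed ones. The small circles lie between -0.53 and -0.08, the medium between -0.79 and -0.41, and the large from -0.47 in L1 down to -2.13 in L6.

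A gene was called when edgeR's quasi-likelihood test gave a fold change above 2 and an adjusted p under 0.05, in one fit over the 3 stages of these 17 MGC libraries. From small to large, 14 of the 150 genes were called lower in large follicles, against 0.424% of the 14876 genes tested, and none higher, against 0.121%. Those 14 were among only 63 genes called lower in all. Among the 8287 tested genes that met the level limit of the choice, 0.446% were called lower. At an unadjusted p under 0.05, 40 of the 150 were lower by more than 2-fold, against 4.9% of all genes, and 1 was higher, against 3.05%. From small to large the log2 fold change had a median of -0.56 over the 150 genes and -0.01 over all genes tested, and 127 of the 150 had a negative value against 51.2% of all genes.

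The count depended on single follicles. It was 3 without L7, 4 without S1 or S3, 5 without L1 or L4, 6 without S2 or L3 and 7 without S7, and 10 to 20 without any one of the others (13 without L6, 20 without S8). The number over all genes tested moved too. It was 8 (0.0538%) without L7 and 113 (0.760%) without S8, the extremes, against 63 in the main fit. With the prefix as a covariate 4 were called, against 0.417% of all genes, and DESeq2 called 26, against 2.37%. The direction did not rest on 1 follicle, since the median log2 fold change stayed between -0.64 and -0.48 whichever follicle was left out. With the prefix as a covariate the median was -0.73. Among these follicles, small and large ones shared a prefix only as S1, S3 and S8 with L6, and as S2 with L2. L6 was the lowest library, so the fit with the prefix cannot show whether 1 follicle carried the direction.

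The smallest p of the 150 in these follicles belonged to ENSBTAG00000004078, at rank 16. Its level was 308 CPM in S1, 200.5 in S2, 311 in S3, 155 in S7, 118 in S8 and 103 in S9. It was 40.7 CPM in M1, 37.2 in M2, 70.7 in M3, 63.6 in M4 and 50.2 in M7. In the large follicles it was 44.9 CPM in L1, 39.9 in L2, 32.0 in L3, 26.1 in L4, 16.3 in L6 and 26.8 in L7. All medium and large libraries lay below all small ones, while medium and large overlapped at 37.2 to 44.9 CPM. The log2 fold change from small to large was -2.66 ± 0.31 (SE), with an adjusted p of 0.00139 from edgeR, and the adjusted p stayed between 0.000284 and 0.00865 with any one follicle left out. With the prefix as a covariate the log2 fold change was -2.61 with an adjusted p of 0.0534. In the libraries of the choice the gene held 110 to 161 CPM in small, 43.9 to 77.6 in medium and 11.4 to 24.4 in large follicles. The medium ranges of both sets were alike. The other follicles averaged more than those of the choice in small (199 against 135 CPM) and in large ones (31.0 against 18.2 CPM).

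The largest fitted change among the called genes was that of the gene at rank 4, at -5.31 ± 0.69 (SE) on the log2 scale with an edgeR adjusted p of 0.00269. It held 77.8 CPM in S1, 227 in S2, 38.5 in S3, 116 in S7, 13.0 in S8 and 113 in S9, but at most 6.42 CPM in any of the other medium and 4.60 in any of the other large libraries. Its levels in other small follicles were mostly above those of S4, S5 and S6, at 17.7 to 26.1 CPM. The gene at rank 5 behaved alike, with 124 to 1257 CPM in the other small follicles, 34.5 to 117 in the medium and 15.4 to 59.5 in the large (log2 fold change -4.08 ± 0.59 (SE), adjusted p = 0.00769 from edgeR). Its highest value was in S2, the follicle in which the median gene of the 150 was lowest among the small. In the 14 called genes the log2 fold changes ran from -5.31 to -1.03, and their ranks from 4 to 80.

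Not every leading gene was lower in the other large follicles. ENSBTAG00000026893, the first by rank, held 1.46 CPM in S1, 1.15 in S2, 46.3 in S3, 5.02 in S7, 4.52 in S8 and 3.69 in S9. In the medium follicles it held 0.280 to 3.26 CPM. In the large it held 56.3 CPM in L1, 7.62 in L2, 0.029 in L3, 24.2 in L4, no count in L6 and 20.6 in L7. The small and large groups overlapped over nearly their whole range, and the log2 fold change of 0.81 ± 1.19 (SE) had an adjusted p of 0.779 from edgeR. With the prefix as a covariate the value turned to -3.06 (adjusted p = 0.782). Without S3, the small follicle with the high value, it was 2.47, and without L1 it was 0.03.

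The genes at ranks 22 and 33 were abundant in MGCs and near 0 in oocytes, and were not called in the other follicles. The gene at rank 22 averaged 741, 200.2 and 134 CPM in small, medium and large follicles of the choice, but 496, 606 and 416 CPM in the other follicles (adjusted p = 0.908 from small to large, edgeR). Its lowest values there were 40.7 CPM in S2 and 8.27 CPM in L6. The gene at rank 33 gave 739, 272 and 158 CPM in the choice and 360, 452 and 325 CPM in the others (adjusted p = 0.979, edgeR), with 13.0 CPM in S2 and 1.22 CPM in L6. S2 and L6 were thus low for both genes, 1 in the small and 1 in the large group. The most positive value in the other follicles, was that of the gene at rank 18, at 1.64 ± 1.63 (SE) on the log2 scale with an edgeR adjusted p of 0.656. It held 19.1 to 32.1 CPM in S4, S5 and S6 and at most 5.16 CPM in any other small follicle.

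**Figure D2:**
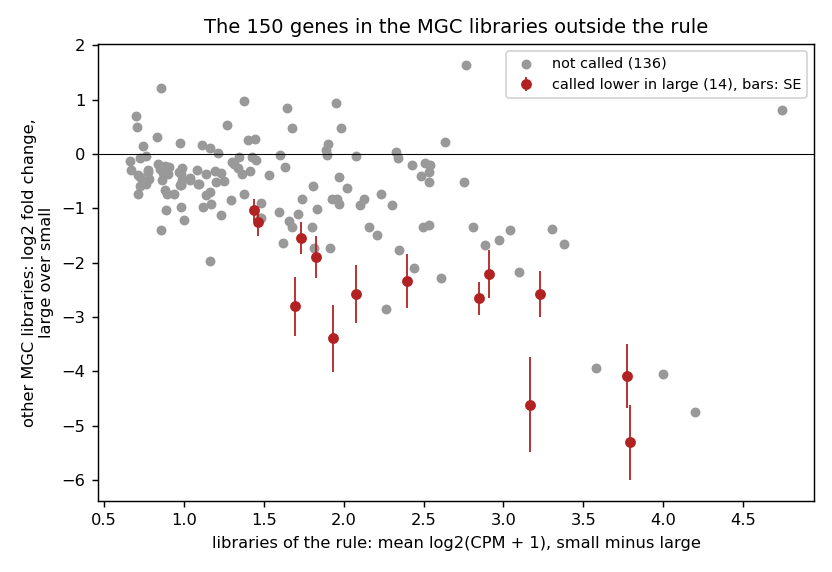
Each point is 1 of the 150 genes, with its mean log2(CPM + 1) in small minus large libraries of the choice (x axis) and its log2 fold change, large over small, in the 17 other MGC libraries (y axis); the 14 genes called lower are in red with their standard error. Most points lie below 0, and the first gene by rank, at the far right, lies above it.

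The ranks come from the libraries of the choice, so the values by rank are a description. The median log2 fold change in the other follicles was -1.34 over ranks 1 to 50, with 9 genes called, -0.55 over ranks 51 to 100, with 5 called, and -0.38 over the last 50, with none called by edgeR. Negative values were nearly as frequent in each of these groups, at 44, 41 and 42 of 50 genes.

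The 2 steps taken apart were weaker. From small to medium, 2 of the 150 genes were called lower, against 0.0269% of all genes, the gene at rank 4 (log2 fold change -4.42, adjusted p = 0.0454, edgeR) and ENSBTAG00000004078 (log2 fold change -1.87, adjusted p = 0.0456, edgeR). Over the 150 genes the median was -0.28 and over all genes -0.02, and 102 of the 150 had a negative value. At an unadjusted p under 0.05, 22 of the 150 were lower by more than 2-fold, against 5.1% of all genes. The calls were lost in most fits that left out a follicle, and over all genes 0 to 14 were called in such fits. DESeq2 called 15 of the 150, against 1.52% of all genes. From medium to large, edgeR called none of the 150, nor any other gene (0% of those tested), and DESeq2 called none. At an unadjusted p under 0.05 edgeR gave 5 of the 150, against 0.592% of all genes, and DESeq2 7, against 0.666%. For this step the medians were -0.34 over the 150 genes and 0.00 over all, and 127 of the 150 had a negative value.

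In single genes, the 3 stage means of the other follicles fell in order in 88 of the 150, against 20.7% of all genes tested. All 6 large libraries lay below all 6 small ones in 12 genes, against 0.961% of all genes. All medium libraries lay below all small ones in 6 genes, against 1.08%, and all large below all medium in 1 gene, against 0.108%.

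Follicles that shared a prefix gave uneven pictures. L6 was below S1, S3 and S8 in 128 of the 150 genes, against 48.7% of all genes. L2 was below S2 in 74 genes, against 38.6%, and S2, M3 and L2 stepped down in this order in 37 genes, against 14.3%. L3 was below M2 in 102 genes, against 42.9%. M4 was below S9 in 84 genes, against 51.4%, and L1 was below M7 in 63, against 39.2%, both near the background. These are single libraries, and the prefixes hold too few follicles for a test within them.

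Across cell types, the 150 genes were not confined to MGCs. They averaged at least 10 CPM in CCs in 109 of 150 genes and at least 1 CPM in 127, with a median of 27.2 CPM over the genes against 27.5 CPM in MGCs. In oocytes 57 averaged at least 10 CPM and 114 at least 1 CPM, with a median of 4.64 CPM. In 13 genes both CC and oocyte means were under 1 CPM. The highest CC level was that of the gene at rank 65, at 3094 CPM against 1100 CPM in MGCs. The highest oocyte levels were those of the genes at ranks 150 and 64, at 2251 and 1453 CPM, whereas MGCs averaged 38.1 and 12.4 CPM.

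In the 16 other follicles with both libraries, with the follicle as a block, 52 of the 150 genes were called higher in MGCs than in CCs, against 31.1% of the 15100 genes tested, and 49 were called higher in CCs, against 20.9%. The share higher in MGCs, 34.7%, was near the background, and that higher in CCs was 32.7%. MGC libraries were standard bulk libraries and CC libraries were amplified by SMART-seq2 from small pools of cells, so cell type and protocol cannot be told apart. Of the 14 genes called lower from small to large in the other MGCs, 11 were among those higher in CCs, 3 were called in neither direction and none was among the 52 higher in MGCs. The median log2 fold change from small to large in the other MGCs was -1.11 in the genes higher in CCs, -0.40 in those higher in MGCs and -0.56 in the remaining 49. The MGC libraries enter both comparisons, so these splits are a description.

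**Figure D3:**
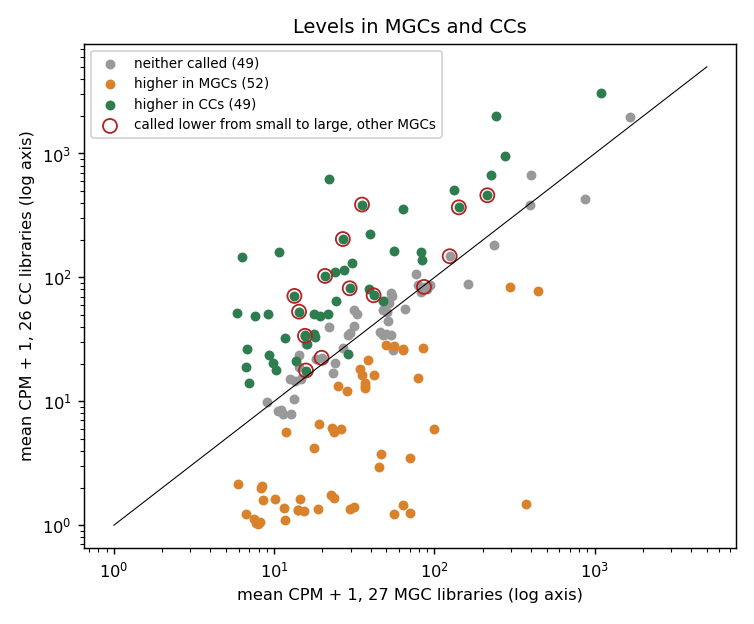
Mean level of each of the 150 genes in 27 MGC libraries (x axis) and 26 CC libraries (y axis), both CPM + 1 on log axes, with the line of equal level; colours give the call between MGCs and CCs, and red rings mark the 14 genes called lower from small to large in the other MGCs. Of the ringed genes, 11 are among the 49 higher in CCs.

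Whether the same genes changed in CCs of the same follicles was asked over 26 CC pools, 8 small, 8 medium and 10 large. The 150 genes summed to 9303 to 22515 CPM in small, 14174 to 24894 CPM in medium and 15014 to 22402 CPM in large follicles, and the stages overlapped widely. S1 and S9 were the lowest, at 9303 and 10324 CPM. From small to large 4 of the 150 were called lower, against 2.09% of all genes, and 3 were called higher, against 1.25%, shares near the background. At an unadjusted p, 13 were lower, against 6.43%. The median change was 0.07 over the 150 genes and 0.11 over all genes. None of the 150 was called in either direction by edgeR in the 10 follicles of the choice alone or in the other follicles alone, where no gene of the table was called lower either. Of the 150, 6 were lower at an unadjusted p in the former, against 1.62% of all genes, and 16 in the latter, against 9.00%. DESeq2 was not run on these subsets.

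Of the genes called higher in large CC pools, ENSBTAG00000021467, at rank 92, averaged 2.55 ± 1.77 CPM (SD, n = 8) for small follicles, 2.85 ± 1.5 (SD, n = 8) for medium ones and 8.64 ± 5.09 (SD, n = 10) for large ones. Its value was 1.76 ± 0.48 (SE) on the log2 scale with an edgeR adjusted p of 0.0397, and large pools from 1.48 to 18.4 CPM overlapped the small ones at 0.552 to 6.08 CPM. In the MGCs of S4, S5 and S6 it held 130 to 166 CPM and in the large follicles of the choice 49.9 to 78.3 CPM, but in the other large MGC libraries it ranged from 34.8 CPM in L6 to 194 CPM in L2. ENSBTAG00000019700, at rank 102, averaged 49.0 ± 35.0 CPM (SD, n = 8) in small and 118 ± 50.8 CPM (SD, n = 10) in large CC pools, a change of 1.28 ± 0.36 (SE) on the log2 scale with an edgeR adjusted p of 0.0440. In the other MGCs the value was -1.96 ± 0.47 (SE) with an edgeR adjusted p of 0.0663, the opposite sign. Both calls in CCs were lost without the filter on low genes, with the prefix as a covariate, in either subset of follicles and with the S7 pool added, with adjusted p from 0.0539 to 0.746. In these fits the log2 fold change ran from 1.36 to 2.13 for ENSBTAG00000021467 and from 0.67 to 1.72 for ENSBTAG00000019700.

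ENSBTAG00000004078 was abundant in CCs too, with a higher mean in large than in small follicles. CC pools of small follicles averaged 43.7 ± 14.4 CPM (SD, n = 8), those of medium ones 96.2 ± 72.4 (SD, n = 8) and those of large ones 103 ± 67.2 (SD, n = 10), with a log2 fold change of 1.10 ± 0.38 (SE) and an adjusted p of 0.0908 from edgeR. In oocytes it averaged at most 0.815 CPM in any stage. A fit over the MGCs and CCs of the other follicles, without S7, was chosen after the separate fits were seen. There ENSBTAG00000004078 differed in its change from small to large between the cell types, by -3.48 ± 0.52 (SE) on the log2 scale (adjusted p = 0.0337 from edgeR). It was the only one of the 150 called in that test, against 0.0397% of all genes. At an unadjusted p, 46 of the 150 had a change more negative in MGCs than in CCs by over 2-fold, against 10.6% of all genes, and 1 the reverse, against 6.88%. The median of this difference was -1.11 over the 150 genes and -0.33 over all genes.

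**Figure D4:**
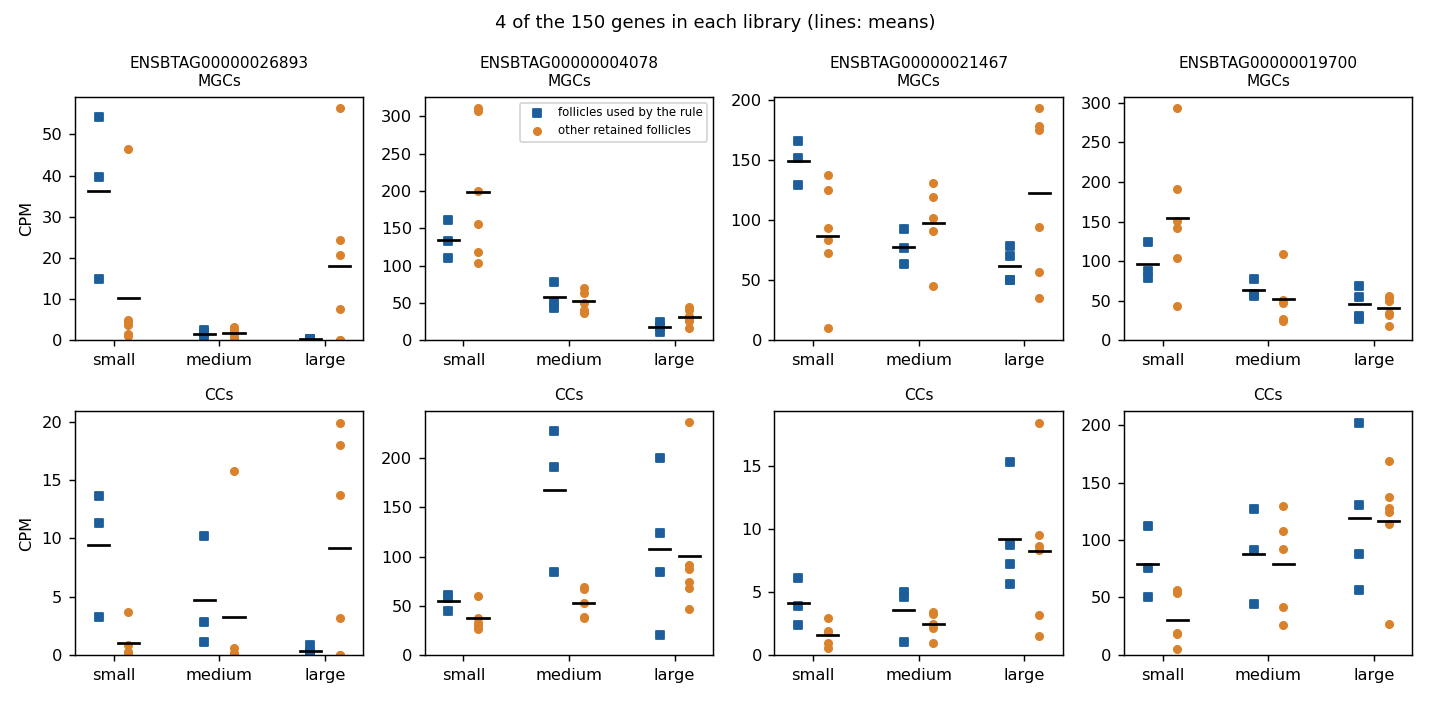
CPM of 4 of the 150 genes in each MGC library (upper row) and CC pool (lower row) by stage, with squares for the follicles of the choice, circles for the other retained follicles and lines for the means; each panel has its own y axis from 0. ENSBTAG00000004078 is lower from small to large in MGCs of both sets but not in CCs, and ENSBTAG00000026893 is high in some large MGC libraries outside the choice.

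In oocytes the 150 genes summed to 8377 to 10129 CPM over the 27 retained follicles, with a mean of 9158 ± 447 CPM (SD, n = 9) for small follicles, 8977 ± 567 (SD, n = 8) for medium ones and 9091 ± 461 (SD, n = 10) for large ones. The stage means differed by less than the spread within a stage. The genes at ranks 150 and 64, at 2251 and 1453 CPM in oocytes, made up a large part of these sums. Of the 147 genes that could be tested, edgeR called none in either direction from small to large, against 0.582% of all genes called lower and 0.924% called higher. At an unadjusted p, 2 were lower by more than 2-fold, against 2.3%, and 8 higher, against 3.92%. DESeq2 called none lower, against 0.643% of all genes, and 1 higher, against 161 of all 14936 genes tested. The median change was 0.00 over these genes and 0.04 over all genes. Of the 150, only 114 averaged at least 1 CPM in oocytes. Genes without a count in small and large oocytes, such as those at ranks 7 and 23, entered this median at 0. Against oocytes of the same follicles, the change from small to large in the other MGCs was more negative in 36 of the 150 genes at an unadjusted p, against 8.8% of all genes, but in none at an adjusted p, against 0.0198% (DESeq2 was not run on this difference).

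**Figure D5:**
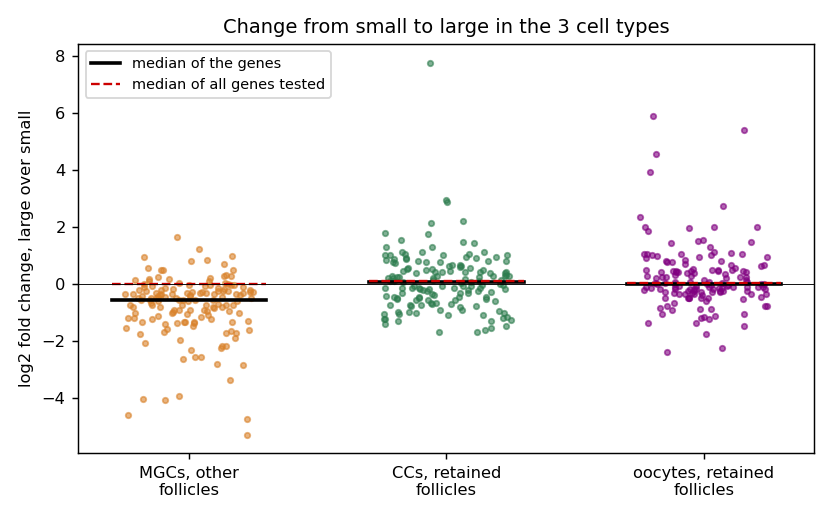
Log2 fold change from small to large follicles of each of the 150 genes (147 in oocytes) in the MGCs of the 17 other follicles, in the CC pools of 26 and in the oocytes of 27 retained follicles; black lines are medians of these genes and red dashed lines medians of all genes tested. The black line stands at -0.56 for MGCs, 0.07 for CCs and 0.00 for oocytes, and the red line at -0.01, 0.11 and 0.04.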

How the data were processed

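MGCs, CC pools and oocytes of 30 follicles were sequenced. The authors deposited raw counts per Ensembl gene without normalization, made with featureCounts over exons on ARS-UCD1.2; their methods name STAR and the processing notes HISAT2 2.2.1, and whether strand was used is not given in the sources used here. All 90 columns were mapped to samples. CPM used column totals, log2 values a pseudocount of 1.

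The members, lists and tests were chosen with earlier results of these data known. The filter for testing was a CPM over 1 in 15 or more of the retained libraries of a cell type, in any of the 3 types, which 15134 genes passed, all 150 members among them. edgeR 4.0.16 in R 4.3.3 (TMM, glmQLFit, glmQLFTest, Benjamini-Hochberg over all genes tested) was the main test and DESeq2 1.42.0 the alternative, with DESeq2 size factors in edgeR, filterByExpr or no filter, the identifier prefix as a covariate, subsets of follicles, unadjusted p and each MGC library left out as further settings. The edgeR test gives no SE. The SE printed with a log2 fold change was worked back from the test, as its absolute value over the square root of the F statistic. The rule was repeated with a small mean of 5 or 20 CPM, a pseudocount of 0.25 or 5, TMM library sizes and each library left out. MGCs and CCs were paired by the follicle number in their titles, since both came from 1 follicle.

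Both tools were tested on simulated data before use, with 200 genes changed 4-fold. For small to large in MGCs, CCs and oocytes, edgeR recovered 166, 156 and 164 of these and DESeq2 183, 180 and 179. Unchanged genes called numbered 4, 9 and 14 with edgeR and 25, 37 and 29 with DESeq2. The simulated counts were drawn independently for each library, and only genes above a level limit were changed. Shared animals or prefixes, and single follicles that diverge over many genes, were not simulated, so these numbers do not cover them. The fits that compare the change between cell types were not simulated.

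The text was to name about 30 genes by rank, level and call, and genes of fixed lists and promoter motifs. Without symbols or sequence this was not run, and 4 identifiers are given. They are the first by rank, the smallest p called lower in the other MGCs, and the 2 smallest p called higher in CCs, leaving out a gene listed at 0 in every small CC pool. This rule for the 4, and the ranks singled out in the text, were chosen after the values were seen. Counts are of reads, not molecules. Plots used matplotlib 3.10.9.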

Additional observations from a re-analysis of the deposited data

Results flagged for a closer look

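ENSBTAG00000004078 changed differently from small to large in MGCs and in CCs of the other follicles, by -3.48 on the log2 scale (adjusted p = 0.0337 from edgeR, follicle as a block). The value came from an interaction term added after the separate results were seen, in a fit that left out S7. The stage means were 199 ± 91.8 CPM (SD, n = 6) in small and 31.0 ± 10.3 (SD, n = 6) in large MGC libraries. The small mean includes S7, at 155 CPM, which the fit did not use. In the CC pools, without S7, they were 37.2 ± 13.7 (SD, n = 5) and 101 ± 68.7 (SD, n = 6).

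Of 38 groups of 4 to 10 libraries, 2 held a sample far from the others, and chance gives about 1 in 20. ENSBTAG00000026893 held 46.3 CPM in the MGCs of S3, against 1.15 to 5.02 CPM in the other 5 small follicles outside the choice. The 150 genes summed to 10129 CPM in the oocyte of L10, against 8532 to 9354 CPM in the other large oocytes.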

How the results depend on the processing

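In the MGCs outside the choice the members called lower from small to large numbered 14, and 40 at an unadjusted p. They numbered 4 with the prefix as a covariate (62 of all genes, against 63) and 26 with DESeq2 (352 of all genes). With any one library left out they numbered 3 to 20 (8 to 113 of all genes). From small to medium 2 became 22 at an unadjusted p, 1 without a filter, 0 with the prefix (26 at an unadjusted p), 15 with DESeq2 (226 of all genes, against 4) and 0 to 3 with a library left out (20 to 27 at an unadjusted p). From medium to large 0 became 5 at an unadjusted p and remained 0 with any library left out (1 to 8 at an unadjusted p). Medians of the log2 fold change stayed between -0.64 and -0.48, between -0.35 and -0.22 and between -0.40 and -0.24 with a library left out. In CCs the 4 called lower became 13 at an unadjusted p, 10 with DESeq2 (4.31% of all genes), and 0 with the prefix, in either subset of follicles or with the S7 pool (8, 6, 16 and 3 at an unadjusted p), where of all genes 0, 0, 0 and 5 were called lower. In oocytes 0 became 2 at an unadjusted p, and the prefix moved the median of 0.00 to 0.30, with that of all genes at 0.20. Without the replicate block, 48 of the 150 in place of 52 were called higher in MGCs than in CCs, against 27.9% of all genes in place of 31.1%. With the block kept, DESeq2 size factors moved the median of all genes from 0.22 to 0.39 and that of the 150 from -0.27 to -0.09. Of the 150, 55 were then called, against 34.4% of all genes. ENSBTAG00000026893 turned from 0.81 to -3.06 with the prefix. With any one library left out, the choice of genes kept 97 (without M6) to 129 of the 150, and 109 to 148 under the other settings of the rule. The causes were not tested.

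The follicles outside the choice, which the study regards as in early atresia, differ from those within it in marker levels as well as in sampling, and the animals are not identified. Genes under 1 CPM rest on under about 40 counts in MGCs, and counting error does not cover amplification in CC and oocyte libraries.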

Other observations

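For the first gene by rank, MGCs and CCs of several follicles were high or low together, a pattern noticed after its values were seen and not tested. The MGC values of S4, S5, M8 and L8 were among those that chose the gene. ENSBTAG00000026893 was high in the MGCs of L1, L4 and L7, at 56.3, 24.2 and 20.6 CPM, and the CC pools of these follicles held 19.9, 13.7 and 18.0 CPM. In L3, L6 and L8 the MGCs held 0.029 CPM, no count and 0.372 CPM, and the CC pools held none. Among small follicles, S4 and S5 held 39.6 and 54.2 CPM in MGCs with 13.7 and 11.3 CPM in CCs, whereas S1, S2 and S9 held 1.46, 1.15 and 3.69 CPM in MGCs with 0.254, 0.289 and 0.158 CPM in CCs. S3 had 46.3 CPM in MGCs but 3.64 CPM in CCs, and M3 and M8 had 15.7 and 10.2 CPM in CCs but 3.26 and 2.42 CPM in MGCs. The oocytes did not follow this order, with 21.9 CPM in L6 and 14.6 CPM in S1. MGCs and CCs of a follicle share the animal and the collection, and the part of either in these values was not tested.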
